A study of Mus musculus with 12 samples.

Results

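Collagens and the other matrix proteins of connective tissue were followed across normal intestine and tumors of Min/+ mice, a model in which a mutation of the tumor suppressor gene Apc leads to adenomas of the intestine. Members were all probe sets of the Affymetrix MG_U74Av2 array annotated with exactly 1 gene symbol, where that symbol was a collagen chain or 1 of 19 further matrix genes (among them Fn1, Sparc, Tnc, Postn, Eln and Fbln1). The choice used names and no measured value. It gave 67 of the array's 12488 probe sets, which stand for 46 of 8251 singly named genes, made up of 44 probe sets of 31 collagen genes and 23 probe sets of 15 other matrix genes. Of the 19 further genes, 4 (Spp1, Thbs1, Fbln5 and Fbn1) matched no probe set with a symbol of its own. A probe set that names a member among several genes was left out, and 15 genes had 2 or more probe sets.

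All mice were male, 91 days old and Min/+. The 12 arrays crossed normal intestine and tumor with 3 numbered diets (1, 2 and 3, whose composition the labels do not give) and with Dnmt+/- or Dnmt+/+ status (heterozygous or wild type for Dnmt, the DNA methyltransferase gene of the labels). Every combination had 1 array. Each tissue thus had 6 arrays, and the normal and tumor arrays of a diet and genotype share a sample code, giving 6 code pairs. The labels do not state how many animals or tumors stand behind an array, which stretch of intestine was taken, or whether a code is an animal, so p-values speak only of the spread among the arrays, which may in part be technical, and the number of arrays limits their precision. Deposited intensities of the 4 diet 1 arrays were unscaled and carried a floor of 50 on 40.9% to 46.0% of probe sets, while the other 8 arrays had a mean of 1000 and no such floor. Diet 1 and its file format cannot be told apart. Intensities below are linear values after quantile normalization, and differences are tumor minus normal on the log2 scale with the standard error (SE) from a limma fit over 7453 probe sets with tissue, diet and genotype as terms. P-values were adjusted by the Benjamini-Hochberg method over all 7453, with a threshold of 0.05.

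Collagens are trimers of alpha chains, each chain encoded by its own gene. Fibrillar collagens (types I, III and V) form the tensile fibres of the lamina propria and submucosa and are made mainly by fibroblasts, whereas network-forming type IV collagen, together with types XV and XVIII, belongs to basement membranes under epithelium and around vessels and muscle. Newly made chains are hydroxylated and folded in the endoplasmic reticulum before secretion, and matricellular proteins such as Sparc and tenascin C are then laid down around the fibres and modulate how cells attach to them.

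Promoter sequences are shown for Col1a2, Col3a1 and Sparc, 3 genes called higher in tumor, so that the bases before their starts can be read beside their values. The sequences are from RefSeq (mouse build GRCm38.p6), which listed 32 of the 46 member genes here, and run 5′ to 3′ over the 250 bases before the annotated start on the strand of the gene. Capitals mark matches to 3 textbook promoter motifs searched on both strands. The CCAAT box was searched as CCAAT. The GC box, known as a site of Sp1, was searched as GGGCGG. The TATA box was searched as TATAAA. A reversed CCAAT box can share bases with a GC box, but the matches printed here share none. Col1a2 lies at chr6:4505368-4505617 (plus strand), Col3a1 at chr1:45311288-45311537 (plus strand) and Sparc at chr11:55420081-55420330 (minus strand).
Col1a2: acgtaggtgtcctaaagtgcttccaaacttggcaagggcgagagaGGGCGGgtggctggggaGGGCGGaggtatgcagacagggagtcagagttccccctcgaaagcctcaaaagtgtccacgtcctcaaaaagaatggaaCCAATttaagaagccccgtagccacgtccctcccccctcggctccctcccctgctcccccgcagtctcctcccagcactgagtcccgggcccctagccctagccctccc
Col3a1: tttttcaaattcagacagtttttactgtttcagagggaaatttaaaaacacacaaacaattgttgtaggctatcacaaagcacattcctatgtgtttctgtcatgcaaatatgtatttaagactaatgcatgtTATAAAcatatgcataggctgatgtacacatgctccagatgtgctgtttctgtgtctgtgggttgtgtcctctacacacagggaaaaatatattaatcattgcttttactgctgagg
Sparc: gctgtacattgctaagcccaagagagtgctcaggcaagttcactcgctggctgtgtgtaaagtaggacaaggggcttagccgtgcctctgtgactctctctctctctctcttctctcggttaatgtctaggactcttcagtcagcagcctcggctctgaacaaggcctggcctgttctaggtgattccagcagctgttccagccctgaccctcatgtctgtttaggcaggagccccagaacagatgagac
Col1a2 held a CCAAT box that began 109 bases before the start and GC boxes at 205 and 188 bases before it. Col3a1 held a TATA box at 117 bases before its start, and the Sparc window held no match. Of all 32851 promoters in the table, 33.8% held the CCAAT box, 32.7% the GC box and 12.4% the TATA box. Counted by gene, with a match in any listed start, these were 37.5%, 35.4% and 14.3% of 27025 genes. Of the 10 genes called higher in tumor that had an entry (out of 14 called), 4, 5 and 3 held them, counted in the same way. These matches are a description of letters and mark no binding site.

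The type IV collagen genes Col4a1 and Col4a2 lie head to head on chromosome 8, and the stretch that holds their listed starts is shown because both genes were called higher in tumor. The listed starts, at 11312826 for Col4a1 (minus strand) and at 11312805 for Col4a2 (plus strand), are 21 bases apart. Each gene runs across the listed start of the other, so their 5′ ends overlap and no gap lies between them. The RefSeq gene entry of Col4a1 reaches further, to 11312889. In the following plus strand sequence of chr8:11312801-11312830 the capitals mark the start bases, Col4a2 on the left and Col4a1 on the right.
Col4a2 and Col4a1 starts: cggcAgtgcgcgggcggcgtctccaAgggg

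More collagen and matrix probe sets rose in tumor than fell. A brightness filter kept 39 of the 67 probe sets (28 genes) for testing, those with a mean log2 intensity above 6.635 over the 12 arrays. Of the 39, 18 (14 genes) rose, 4 (2 genes) fell and 17 did not pass. The 22 that passed were 56.4% of the 39, against 33.5% of all 7453. The share that rose was 46.2%, against 17.0% of all 7453 probe sets tested, and the share that fell was 10.3%, against 16.5%. The median difference of the 39 was 0.39 (log2), where that of all probe sets tested was -0.0084. At least 2-fold increases past the threshold were found for 7 of the 39 (17.9%, against 4.76% of all). Among these 7 was Col18a1 101882_s_at, which passed the brightness filter only through the tumor arrays. Col14a1, 1 of the 4 that fell, passed it only through the normal arrays. The normal and tumor arrays did not overlap for 6 of the 39, all higher in tumor (15.4%, against 5.82% of all probe sets with tumor higher throughout). Of the 18 that rose, 13 were higher in tumor in all 6 code pairs. That count is only a description, since the same arrays gave the calls, and it was not made over all probe sets. Among collagens 14 of 26 tested probe sets rose, 1 fell and 11 did not pass, and among the other matrix genes 4 of 13 rose, 3 fell and 6 did not pass. In bulk tissue, a change in the number of cells of a type and a change in RNA per cell cannot be told apart.

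**Figure D1:**
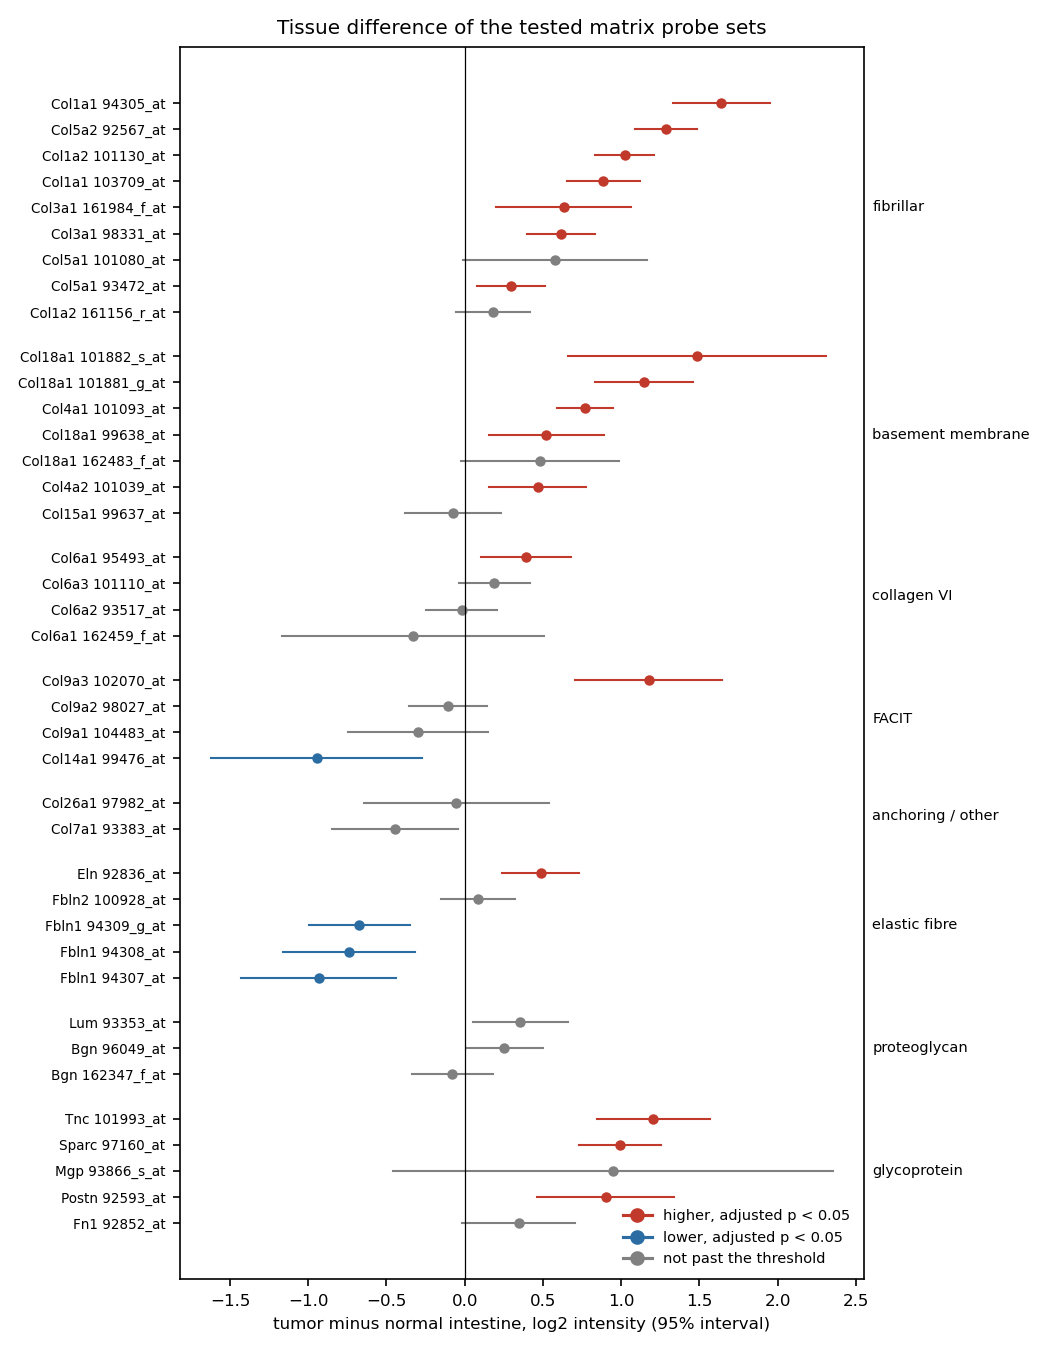
Difference between tumor and normal intestine (log2 intensity, x axis) for the 39 tested probe sets, grouped by role, with points for the limma estimate and lines for its 95% interval. Red marks the 18 that rose, blue the 4 that fell and grey the 17 that did not pass; most fibrillar and basement membrane collagens lie right of 0, while the 3 Fbln1 probe sets and Col14a1 lie left of it.

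Fibrillar collagens gave the most increases: 7 of 9 tested probe sets rose, covering all 5 genes tested, none fell, and the median difference was 0.63. Col1a1, which encodes the alpha 1 chain of type I collagen, measured 443, 647 and 815 (lowest, median and highest) on the normal arrays and 1754, 1971 and 2387 on the tumor arrays by the probe set 94305_at. Every tumor array was above every normal array. The difference was 1.64 ± 0.14 (SE, n = 6 arrays per tissue), a 3.11-fold increase (adjusted p = 4.49e-05). The second Col1a1 probe set, 103709_at, differed by 0.89 ± 0.10 (adjusted p = 0.000255), with tumor higher in all 6 code pairs.

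Col1a2, the gene of the other type I chain, measured 370.4, 421 and 665 in normal intestine and 787, 867 and 1262 in tumor by 101130_at. The groups did not overlap, and the diet 2 arrays were the highest of each tissue. The difference was 1.02 ± 0.084 (2.03-fold, adjusted p = 3.86e-05). Its brightest probe set, 161156_r_at, measured 982, 1511 and 1784 in normal intestine and 1428, 1515 and 2195 in tumor. Those ranges overlapped, and their medians were nearly equal. The difference was 0.18 ± 0.11 (95% interval -0.06 to 0.42, adjusted p = 0.223), with tumor higher in 4 of 6 code pairs and a value of -0.01 after median scaling. The Col1a2 probe sets therefore gave different results.

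Type III and type V collagens accompany type I in fibres, and their genes rose as well. Col3a1 (98331_at) measured 846, 883 and 1661 in normal intestine and 1286, 1474 and 2254 in tumor. Within each tissue both diet 1 arrays were the highest, and the tissues overlapped, but tumor was higher in all 6 code pairs. The difference was 0.61 ± 0.096 (adjusted p = 0.00136). Its dimmer probe set 161984_f_at differed by 0.63 ± 0.19 (adjusted p = 0.0306), but by 0.32 without the diet 2 arrays (adjusted p = 0.246). With the sample code as a fixed block its adjusted p was 0.0506. Col5a2, a type V chain gene, had normal intensities of 173, 264 and 304 and tumor intensities of 391, 672 and 769. The tissues did not overlap although the diet 1 arrays were the lowest in both, and the difference was 1.29 ± 0.087 (2.44-fold, adjusted p = 1.61e-05), the smallest adjusted p of the 39 members. Col5a1, the gene of the partner chain, showed a smaller difference of 0.30 ± 0.095 by 93472_at (adjusted p = 0.0393) and 0.58 ± 0.26 by 101080_at (adjusted p = 0.121). Its 93472_at call did not pass in 10 of the 12 fits that each leave out 1 array (differences of 0.25 to 0.35 over the 12), nor with the sample code as a fixed block (adjusted p = 0.0623).

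**Figure D2:**
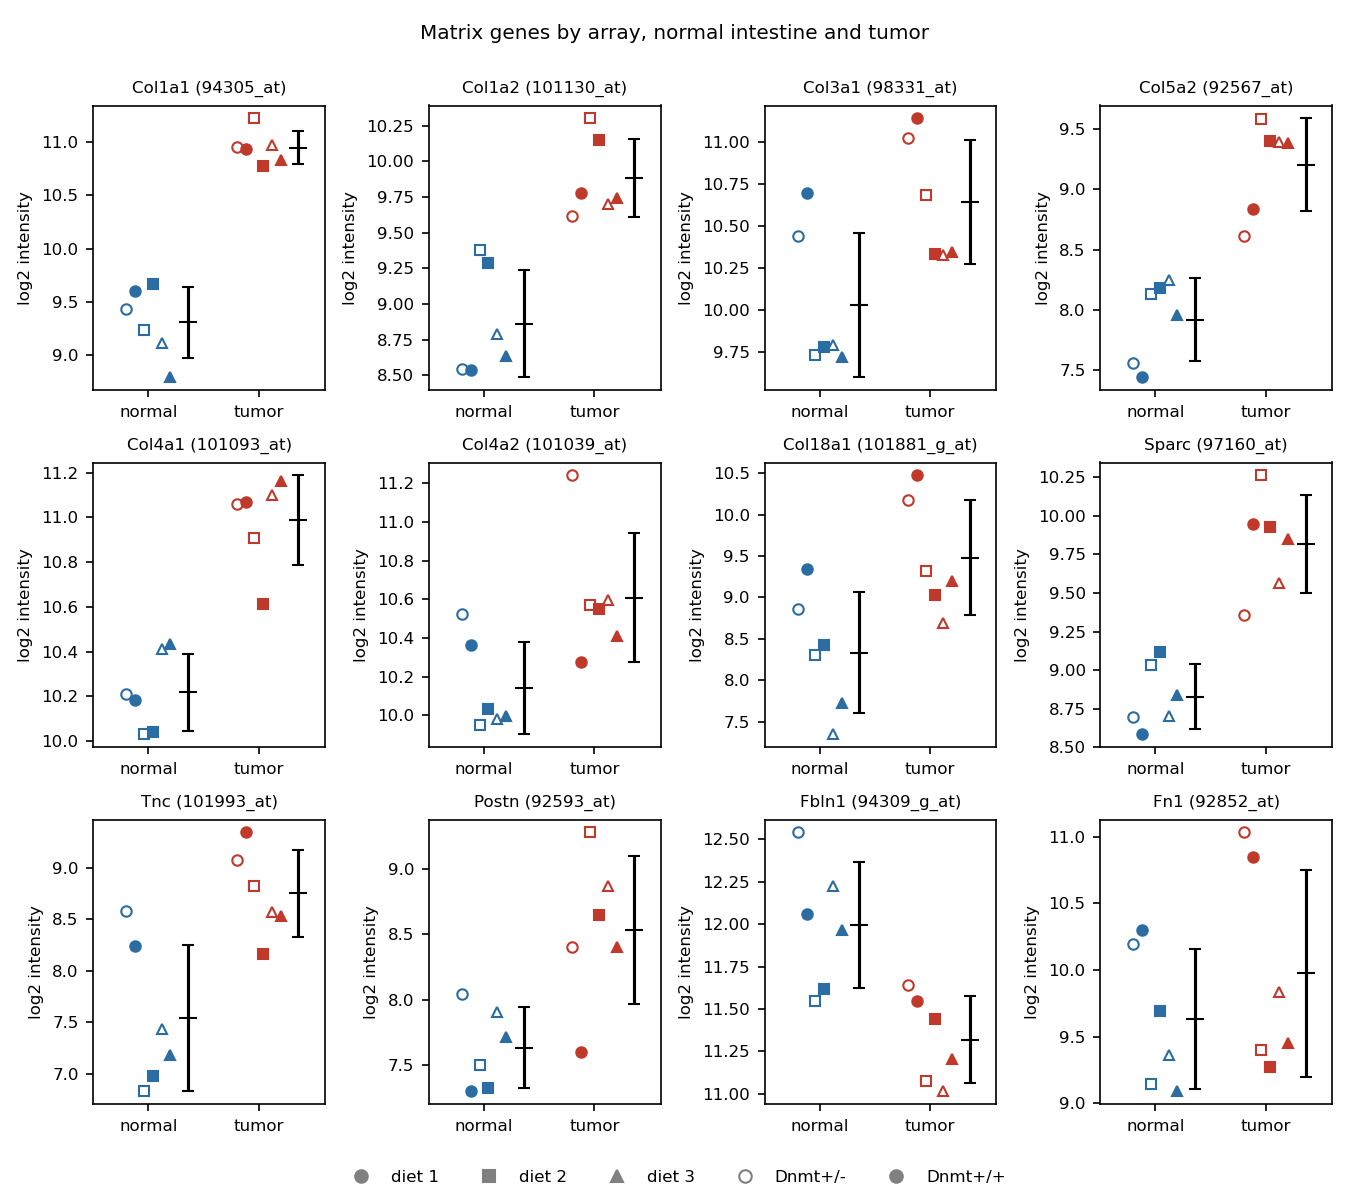
Normalized log2 intensity (y axis, a separate scale in each panel) of 12 matrix genes on each of the 6 normal (blue) and 6 tumor (red) arrays, with shape for diet and open symbols for Dnmt+/-. Each panel shows the tested probe set of its gene with the smallest adjusted p for tissue. Black bars give the mean ± SD of 6 arrays. Tumor and normal arrays do not overlap for Col1a1, Col1a2 (101130_at), Col5a2, Col4a1 and Sparc. They overlap for Fn1 and for Fbln1 (94309_g_at), whose mean is lower in tumor. The brightest Col1a2 probe set, 161156_r_at, whose tissues overlap, is not shown.

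Of 7 tested basement membrane probe sets, 5 rose, from 3 of 4 genes, and none fell (median 0.52). Col4a1, the gene of a chain of type IV collagen, measured 1045, 1172 and 1382 in normal intestine and 1567, 2142 and 2297 in tumor. The tissues did not overlap, and the difference was 0.77 ± 0.080 (1.70-fold, adjusted p = 0.000144). Col4a2, which shares the start region printed above, measured 989, 1035 and 1470.0 in normal intestine and 1239, 1510.3 and 2418 in tumor. The highest tumor value stood alone on the Dnmt+/- array of diet 1, while the Dnmt+/+ tumor array of that diet was the lowest tumor array and below its normal partner. The difference was 0.47 ± 0.14 (1.38-fold, adjusted p = 0.0273), in the same direction in 5 of 6 code pairs. It was not called in 7 of these 12 leave-one-out fits (0.38 to 0.60 over the 12), nor after median scaling (0.29, adjusted p = 0.0995).

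Col18a1, whose product carries the endostatin fragment at its end, was measured by 5 probe sets, of which 4 were tested and 3 rose. By 101881_g_at it measured 163, 329 and 650.1 in normal intestine and 413, 612 and 1422 in tumor. Both tissues were highest in diet 1 and the tissues overlapped, but tumor was higher in every code pair, by 1.15 ± 0.14 (2.21-fold, adjusted p = 0.000318). The probe set 101882_s_at differed by 1.48 ± 0.37 (adjusted p = 0.0127). It passed the brightness filter at 6.635 only through the tumor arrays (mean log2 intensity 7.75, and 6.27 in normal intestine). On it all 4 diet 1 arrays were at the floor of the files, so its difference was -0.02 in diet 1, 2.06 in diet 2 and 2.41 in diet 3, and 2.23 over diets 2 and 3 together. The probe set 99638_at differed by 0.52 ± 0.16 (adjusted p = 0.0356) and was not called in 8 of the 12 leave-one-out fits (0.45 to 0.68 over the 12). The fourth, 162483_f_at, differed by 0.48 ± 0.22 (adjusted p = 0.13). Col15a1, the gene of the related type XV chain, differed by -0.08 ± 0.14 (95% interval -0.38 to 0.23, adjusted p = 0.698).

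Collagen VI, which forms beaded filaments next to basement membranes, showed little difference. Its 4 probe sets had a median of 0.085, and 1 of them rose. Col6a1 (95493_at) measured 1121, 1218 and 1441 in normal intestine and 1128, 1726 and 1931 in tumor. The lowest tumor array, the Dnmt+/+ array of diet 1, lay within the normal range. The difference was 0.39 ± 0.13 (adjusted p = 0.0423), but it was not called in 10 of the 12 leave-one-out fits (0.32 to 0.51 over the 12), and it was 0.21 after median scaling (adjusted p = 0.211). With the sample code as a fixed block its adjusted p was 0.0556. A dimmer Col6a1 probe set, 162459_f_at, differed by -0.33 ± 0.37 (adjusted p = 0.528). Col6a3 differed by 0.19 ± 0.10 (adjusted p = 0.177) and Col6a2 by -0.02 ± 0.10 (95% interval -0.25 to 0.20, adjusted p = 0.897).

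Among collagens that sit on the surface of fibrils, of 4 tested probe sets, Col9a3 rose and Col14a1 fell. The Col14a1 call was lost with the sample code as a fixed block. Col9a3, the gene of a type IX chain best known from cartilage, measured 158, 174 and 225 in normal intestine and 292, 363 and 726 in tumor. No arrays overlapped, and the 2 highest tumor values were those of diet 1. The difference was 1.18 ± 0.21 (2.26-fold, adjusted p = 0.00247), while the other type IX chain genes differed by -0.30 ± 0.20 (Col9a1, adjusted p = 0.282) and -0.11 ± 0.11 (Col9a2, adjusted p = 0.493). Col14a1 measured 124, 159 and 334 in normal intestine and 47.4, 113 and 149 in tumor. It passed the brightness filter at 6.635 only through the normal arrays (mean log2 intensity 7.52, and 6.58 in tumor). Tumor was lower in all 6 code pairs, with the Dnmt+/- tumor array of diet 1 at the floor of the files, and the difference was -0.94 ± 0.30 (adjusted p = 0.037). It was -0.48 without the diet 1 arrays (adjusted p = 0.0387), and it was not called in 7 of the 12 leave-one-out fits (-1.06 to -0.65 over the 12). With the sample code as a fixed block its adjusted p was 0.0688. Col7a1, which anchors basement membrane to stroma, differed by -0.45 ± 0.18 (adjusted p = 0.0849), and Col26a1 by -0.05 ± 0.26 (adjusted p = 0.898).

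Elastic fibre genes split by gene. Eln, which encodes elastin, measured 280.0, 329.9 and 421 in normal intestine and 415, 469.9 and 501 in tumor. The tissues overlapped by 1 array, and tumor was higher in all 6 code pairs, by 0.49 ± 0.11 (adjusted p = 0.00807). A second Eln probe set, 92207_at, was too dim to be tested and pointed the other way. With the filter removed it differed by -0.77 (adjusted p = 0.219 by limma), with 4 normal and 6 tumor arrays at a floor. Fbln1, the gene of fibulin 1, a glycoprotein of elastic fibres and basement membranes, fell by all 3 of its tested probe sets. By 94307_at it measured 653, 1167 and 1552 in normal intestine and 464, 591 and 696 in tumor. Its values in normal intestine spread widely, with the Dnmt+/+ array of diet 1 lowest and within the tumor range, and tumor was lower in all 6 code pairs. The difference was -0.93 ± 0.22 (adjusted p = 0.00993), and the other probe sets differed by -0.74 ± 0.19 (94308_at, adjusted p = 0.0141) and -0.67 ± 0.14 (94309_g_at, adjusted p = 0.00631). Fbln2, a paralogue with 2 arrays of each tissue at a floor, differed by 0.08 ± 0.11 (adjusted p = 0.571).

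Among matricellular and adhesive glycoproteins 3 of 5 tested probe sets rose and none fell (median 0.95). Sparc, a collagen-binding protein of remodelling tissue, measured 383, 437 and 556 in normal intestine and 657, 949 and 1228 in tumor. The tissues did not overlap, and the difference was 0.99 ± 0.12 (1.99-fold, adjusted p = 0.000269), nearly the same in each diet (1.01, 1.02 and 0.94 in diets 1, 2 and 3). Tnc, which encodes tenascin C, measured 114, 159 and 382 in normal intestine and 287, 416 and 648 in tumor. Both diet 1 normal arrays reached the tumor range, but tumor was higher in all 6 code pairs, by 1.21 ± 0.16 (2.31-fold, adjusted p = 0.000573). Postn, the gene of periostin, measured 158, 196 and 264 in normal intestine and 194, 369.6 and 620.2 in tumor. The Dnmt+/+ tumor array of diet 1 lay within the normal range, and the difference of 0.90 ± 0.19 (1.87-fold, adjusted p = 0.0067) was made up of 0.33, 1.55 and 0.83 in diets 1, 2 and 3. Without the diet 2 arrays it was 0.58 (adjusted p = 0.0654).

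Fn1, which encodes fibronectin, did not pass. It measured 544, 743 and 1264 in normal intestine and 619, 806 and 2094 in tumor. The diet 1 arrays were the highest of each tissue, and in diet 2 tumor and normal arrays overlapped. The difference was 0.34 ± 0.16 (95% interval -0.02 to 0.70, adjusted p = 0.129). Without the Dnmt+/+ normal array of diet 2 it was 0.49 (adjusted p = 0.0116), and without all diet 2 arrays 0.56 (adjusted p = 0.0376). Mgp, a matrix inhibitor of calcification, had the widest error of the 39: its tumor values ran from the floor of 44.8 to 1896, and the difference was 0.95 ± 0.62 (adjusted p = 0.276).

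None of the 3 small proteoglycan probe sets tested passed. Bgn, the gene of biglycan, a collagen-binding proteoglycan, measured 1095, 1537 and 2641 in normal intestine and 1369, 1764 and 3312 in tumor. The tissues overlapped over most of their range. The difference was 0.25 ± 0.11 (adjusted p = 0.106), and it passed without the Dnmt+/+ normal array of diet 2 (0.32, adjusted p = 0.0467). A second Bgn probe set differed by -0.08 ± 0.12 (adjusted p = 0.64). Lum, the gene of lumican, differed by 0.36 ± 0.13 (95% interval 0.05 to 0.66, adjusted p = 0.0707).

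A further 28 probe sets were too dim to be tested (mean log2 intensity at or below 6.635, which corresponds to an intensity of 99.4). Of these, 22 were all the probe sets of 18 genes, and 6 were further probe sets of tested genes. The 18 genes included Nid1, Lox, Vcan, Fmod, Thbs2, Col4a3, Col4a4 and Col4a5. With the filter removed, none of the 28 passed by limma, and 2 had an unadjusted p under 0.05 (second probe sets of Tnc, 0.97, and Col3a1, 0.84). Probe sets of Col4a3, Col22a1, Col17a1 and Fmod were at a floor on all 12 arrays, so no difference was measurable there.

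Within each diet most members were higher in tumor. Of all 39, 27, 28 and 30 were higher in tumor within diets 1, 2 and 3, with median differences of 0.25, 0.27 and 0.42 (-0.02, 0 and -0.02 over all probe sets tested). The called members can be read within diets only as a description, since the same arrays gave the calls. Of the 18 probe sets that rose, 17 were higher in tumor within diet 1, 18 within diet 2 and 18 within diet 3, and the exception was Col18a1 101882_s_at, at the floor in diet 1. The 4 that fell were lower in tumor within every diet. Single members varied between diets, such as Col14a1 with -1.87, -0.54 and -0.43 in diets 1, 2 and 3, and Col3a1 161984_f_at with 0.52, 1.26 and 0.12. Over the arrays of a single diet (4 arrays), 0, 12 and 5 of the 39 were called higher and 0, 1 and 1 lower, in diets 1, 2 and 3. Of all 7453 probe sets, 0%, 10.0% and 3.86% were called higher, and 0, 660 and 256 were called lower. The fit within diet 1 thus called no probe set at all.

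**Figure D3:**
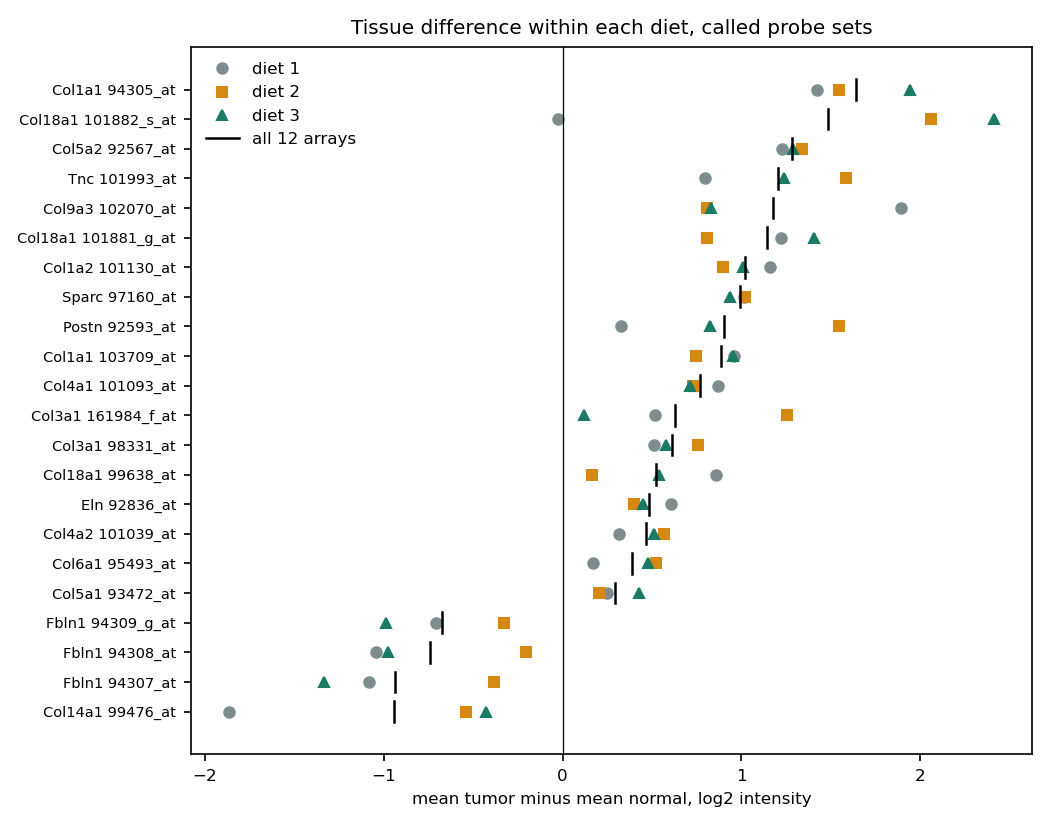
Mean tumor minus mean normal log2 intensity (x axis) within each diet (2 arrays per tissue) for the 22 called probe sets, with a black tick for the fit over 12 arrays. Of the 18 that rose, all but Col18a1 101882_s_at in diet 1 lie right of 0 in every diet, and the 4 that fell lie left of 0.

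Other genes of the matrix pathway were counted from lists that were set up with earlier results of these data known, and are to be read against the 17.0% of all probe sets that rose and the 16.5% that fell. Of 11 tested genes of collagen folding, modification and export, 4 rose and 2 fell. The prolyl hydroxylase gene P4ha2 rose by 0.66 ± 0.17 (adjusted p = 0.0162), the cyclophilin gene Ppib by 0.53 ± 0.081 (adjusted p = 0.00118) and Serpinh1, the gene of the collagen chaperone Hsp47, by 0.51 ± 0.10 (adjusted p = 0.00443). Sec23a, a coat protein gene of vesicles that leave the endoplasmic reticulum, fell by 0.70 (adjusted p = 0.00149), as did Bmp1, a procollagen C-proteinase gene, by 0.46 (adjusted p = 0.0449). Of 14 matrix receptor genes 5 rose and 1 fell. Those that rose were all integrin genes, led by Itgb4 (1.30 ± 0.10), Itgav (0.87 ± 0.094) and Itga2 (0.66 ± 0.21). Itga2 passed the brightness filter only through tumor (mean log2 intensity 7.04, and 6.38 in normal intestine). The fibrillar collagen receptor gene Ddr2 fell by 0.79 (adjusted p = 0.0486). Of 6 genes of TGF-beta type and other matrix-inducing factors 1 rose and 1 fell, a share near that of all probe sets. Inhba, an activin subunit gene, rose by 0.87 ± 0.23 (adjusted p = 0.0171) and Tgfbi, whose product is a TGF-beta-induced adhesion protein, fell by 0.62 (adjusted p = 0.00243). Of 7 other matrix genes 4 rose, among them the perlecan gene Hspg2 (0.72 ± 0.24, adjusted p = 0.0461), the decorin gene Dcn (0.72 ± 0.085, adjusted p = 0.000284) and Smoc2 (0.61 ± 0.13, adjusted p = 0.0055).

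Beside the matrix genes, 3 of 5 fibroblast markers and 3 keratin genes of the epithelial list were higher in tumor, and adipocyte markers were lower. Their part in the result was not tested. Of 5 fibroblast markers 3 rose (Pdgfra 1.28 ± 0.42, Pdgfrb 0.76 ± 0.18 and Dcn), while Vim (0.31 ± 0.40) and Thy1 (0.63 ± 0.35) did not pass. Pdgfrb passed the brightness filter only through tumor (mean log2 intensity 7.04, and 6.28 in normal intestine). The summed intensity of the 5 was 3159 to 3829.5 on the normal arrays and 4635 to 6041 on the tumor arrays. Most of that sum was Dcn (median 2339 in normal intestine and 4185 in tumor), a matrix gene already counted above. Smooth muscle markers overlapped between tissues (13171 to 26887 and 13399 to 21421), with 0 of 7 higher and 1 lower. Endothelial markers also overlapped (855 to 1274 and 1033 to 1400.4), with Cdh5 higher (1.48 ± 0.26) and Emcn lower (-0.70 ± 0.14) out of 5 tested. All 3 adipocyte markers tested fell (499.5 to 1245 and 244 to 489), and of 3 macrophage markers 1 rose and 2 fell. The adipocyte marker Adipoq passed the brightness filter only through normal intestine (mean log2 intensity 7.91, and 6.34 in tumor). Epithelial markers, present on every array, were higher in tumor for 3 of 6 genes (34319 to 40389.5 and 63688 to 67719). Of the cartilage and bone markers 2 were tested and neither passed, and the cartilage proteoglycan gene Acan was too dim to be tested. Pancreas markers summed to 45858 and 49971 on the diet 2 normal arrays and to no more than 216 on the other normal arrays. With all diet 2 arrays left out 12 members were called higher and 3 lower, and with only the diet 2 normal arrays left out 14 and 3. Leaving out diet 1 gave 16 and 3. In the same order, 8.86%, 11.6% and 15.5% of all 7453 probe sets were called higher, and 661, 882 and 1129 were called lower.

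The Dnmt genotype comparison asked whether matrix genes differed between Dnmt+/- and Dnmt+/+ mice. None of the 39 members passed by limma, and 1 had an unadjusted p under 0.05, where 0.0134% of all probe sets passed and 4.45% had an unadjusted p under 0.05. That member was Postn, with a difference (Dnmt+/- minus Dnmt+/+) of 0.50 ± 0.19 (n = 6 arrays per genotype, adjusted p = 0.915). The next smallest p-values were those of Lum (0.30 ± 0.13), Col6a3 (0.21 ± 0.10), Col6a1 162459_f_at (0.71 ± 0.37) and Col5a1 93472_at (0.18 ± 0.095). For the main fibrillar genes the 95% interval was -0.26 to 0.36 for Col1a1, -0.15 to 0.22 for Col1a2 (101130_at) and -0.22 to 0.21 for Col3a1, which leaves room for differences of that size. Of the 39 members 29 (74.4%) had a difference above 0, against 48.0% of all probe sets. Scaling moved both shares: 24 of 38 (63.2%, against 43.2%) lay above 0 after median scaling and 14 of 40 (35%, against 24.9%) on the values as deposited.

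The tumor difference was compared between genotypes with an interaction term. None of the 39 members passed and none had an unadjusted p under 0.05, where 0 of all probe sets passed and 2.87% had an unadjusted p under 0.05. The smallest p-values were those of Mgp (2.37 ± 1.04), Bgn (0.41 ± 0.18), Col9a1 (-0.67 ± 0.35), Col18a1 162483_f_at (0.74 ± 0.40) and Col6a1 95493_at (0.41 ± 0.23), all with an adjusted p of 0.999. For Col1a1 the tumor difference was 1.79 in Dnmt+/- and 1.49 in Dnmt+/+, and the interaction was 0.29 ± 0.27 (95% interval -0.33 to 0.92).

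Diets 2 and 3 were compared with each other, since their files share a format. Of the 39 members 2 passed, both lower in diet 3, and 7 had an unadjusted p under 0.05 (21.6% of all probe sets did). The 2 were 5.13% of the members, where 4.43% of all probe sets passed in either direction and 1.76% of all passed as lower in diet 3. The diet 2 normal arrays stand apart by the pancreas markers given above. Without them neither member passed on the fewer arrays that remained, an alternative chosen after seeing the data: the difference was -0.47 for Col1a2 (adjusted p = 0.246) and -0.98 for Col9a1 (adjusted p = 0.325). Col1a2 (101130_at) was lower by 0.56 ± 0.10, with 665 and 626 on the normal arrays of diet 2 against 443 and 398 in diet 3, and with 1262 and 1139 on the tumor arrays against 834 and 856. All diet 3 values were below the diet 2 values of the same tissue (n = 4 arrays per diet, adjusted p = 0.0219). The brighter Col1a2 probe set 161156_r_at differed by -0.25 ± 0.13 (adjusted p = 0.307). Col9a1 was lower by 1.11 ± 0.24, with 792 and 522 on the diet 2 normal arrays against 461 and 217, and with 441 and 488 on the tumor arrays against 197 and 210.2 (adjusted p = 0.039). In the 12 leave-one-out fits Col1a2 was not called in 7 and Col9a1 in 9, and Col1a2 did not pass on the values as deposited (adjusted p = 0.0632). Col4a1 was 0.38 ± 0.098 higher in diet 3 and did not pass (adjusted p = 0.0614).

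**Figure D4:**
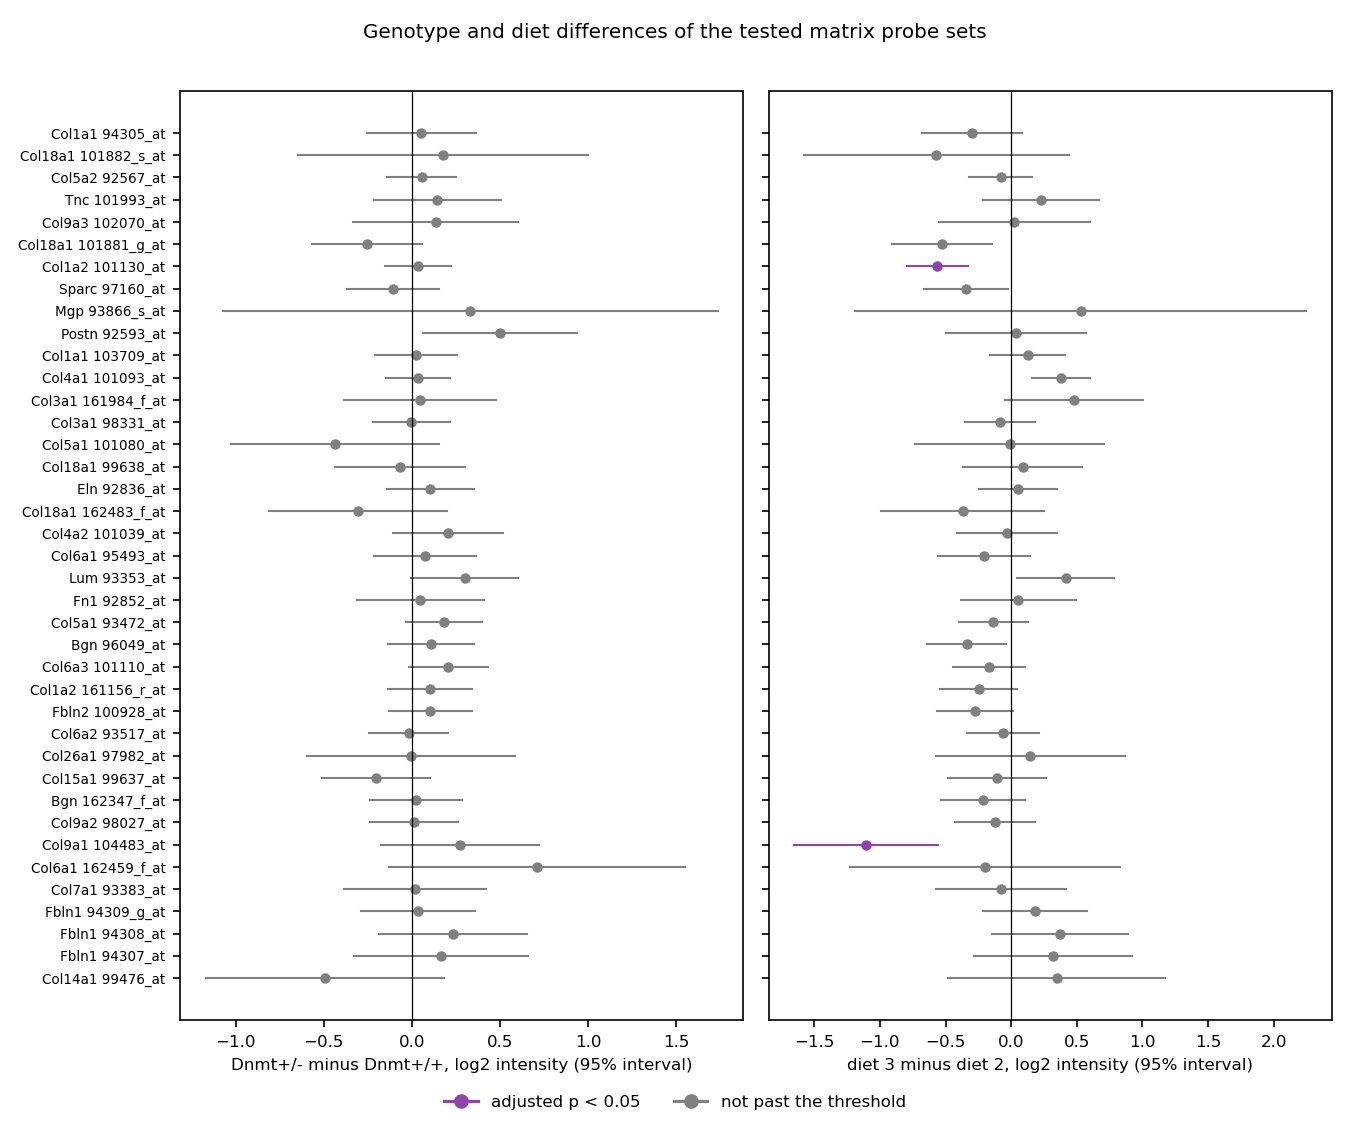
Differences of the 39 tested probe sets between genotypes (left, Dnmt+/- minus Dnmt+/+) and between diets (right, diet 3 minus diet 2), in log2 intensity with 95% intervals, ordered by their tissue difference. Purple marks the 2 that passed, Col1a2 101130_at and Col9a1, both lower in diet 3; no probe set passed for genotype.

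The tumor difference was also compared between diets 3 and 2. None of the 39 members passed by limma and 2 had an unadjusted p under 0.05, where 0.322% and 9.55% of all probe sets did. These 2 were Col3a1 161984_f_at (-1.14 ± 0.31, adjusted p = 0.322), whose tumor difference was 1.26 in diet 2 and 0.12 in diet 3, and Postn (-0.72 ± 0.28, adjusted p = 0.474). The brighter Col3a1 probe set gave -0.18 ± 0.23 (95% interval -0.73 to 0.37).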

How the data were processed

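Per the labels, total RNA was extracted with Trizol and hybridised to Affymetrix MG_U74Av2 arrays. The authors deposited linear intensity per probe set; the sources used here do not name the software that summarised the probes. From 12488 probe sets, 66 controls were removed. Linear intensities of the other 12422 were quantile normalized, set to at least 44.8 (the 20th percentile) and log2 transformed; the 40% with the lowest mean were then left out, leaving 7453. The platform annotation named 1 gene for 10833 probe sets, several genes for 396, and no gene for 1193; 10817 matched RefSeq (GRCm38.p6) by Entrez ID. Fits used limma 3.58.1 in R 4.3.3 on these 7453, with all tested probe sets of a gene kept and the threshold at an adjusted p of 0.05. The fits were also run on simulated data with independent noise and no effects of diet, code pairs or file floors. That run therefore cannot show how the fits handle these features.

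Values were given for the 12 members with the largest called tissue difference and for a set list of genes (Col1a1, Col1a2, Col3a1, Col4a1, Col4a2, Col6a1, Fn1, Sparc, Tnc, Bgn). Otherwise up to 5 members of smallest p were named, and 3 per list. Eln, Col5a1, Col9a2, Lum and others named so that each group was covered fall outside this rule and were chosen after their values were seen. Members and lists were chosen with earlier results of these data known. Alternatives covered scaling, floors, filters, blocks and arrays left out. Sample codes pair the arrays by label. Deviations from tissue means correlated at 0.48 to 0.68 within codes, and at -0.56 to -0.38 once diet and genotype were removed. The first range holds the differences between diets and file formats. Each code is a single combination of diet and genotype, so removing these terms lowers the second range whether or not pairs are alike. Neither range can therefore decide whether the arrays of a code are alike. No near-duplicates were found (r at most 0.981 within a tissue).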

Additional observations from a re-analysis of the deposited data

Results flagged for a closer look

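Among 58 groups of 6 arrays tested (29 named probe sets in each tissue), 4 had an array whose gap to its neighbour, divided by the range of the group, exceeded Dixon's 95% critical value; chance flags about 1 in 20 groups. All 4 arrays were from diet 1. The ratio was 0.667 for Col4a2 on the Dnmt+/- tumor array (2418, nearest 1548). It was 0.824 for Col6a1 162459_f_at on the Dnmt+/+ tumor array (44.8, the floor; nearest 270.0). On the same array it was 0.653 for Col5a1 93472_at (467, nearest 606). For Mgp on the Dnmt+/- normal array, which was at the floor of the files, it was 0.747 (48.9, nearest 212).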

How the results depend on the processing

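The tissue counts (18 higher, 4 lower) kept within 1.5 times under both scalings (14 and 4 after median scaling, 21 and 4 as deposited), both floors, both filters and trended variances. They were 15 and 3 with the sample code as a fixed replicate block and 17 and 4 as a random block. The fixed block ended the calls of Col14a1, Col6a1 95493_at, Col3a1 161984_f_at and Col5a1 93472_at (adjusted p 0.0506 to 0.0688), and the random block that of Col6a1 (adjusted p = 0.0532). With 1 array left out the counts were 13 to 18 and 3 to 4. With the brightest probe set per gene 13 rose and 2 fell, since 3 Fbln1 probe sets become 1. Within diets 1, 2 and 3 alone, on 4 arrays each, the counts were 0, 12 and 5 higher and 0, 1 and 1 lower. Of all probe sets tested, 0%, 10.0% and 3.86% were called higher in those fits. Col18a1 101882_s_at reversed in diet 1 (-0.024, at the file floor). Of the 22 called probe sets, 16 passed in every fit with an array left out; the other 6 were Col14a1, Col4a2, Col6a1 95493_at, Col18a1 99638_at, Col3a1 161984_f_at and Col5a1 93472_at. Diet 3 against 2 gave 2 calls, 1 as deposited, 1 with the brightest probe set per gene, 0 without the diet 2 normal arrays (added after seeing the data, on fewer arrays) and 0 to 2 with an array left out. Genotype and both interactions gave 0 under every alternative that tested them. The fixed block and the fits within a single diet did not test genotype. The fits within a single diet and the fit without the diet 2 normal arrays tested no interaction. The median of all probe sets shifted by -0.093 with median scaling and by 0.14 as deposited. The causes of these differences were not tested unless stated.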
